A study of Mus musculus with 6 samples.

Results

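The 2 libraries of cultured mouse spermatogonial stem cells at passage 18 were compared with the 4 libraries of the same kind of culture at passage 20. The passage number is the count of times a culture has been split and replated. Libraries were assigned by the passage given in the labels, so the comparison used all 6 libraries of the study and all 15920 genes with enough counts. Each library came from 1 subcloned line of adult spermatogonial stem cells grown in StemPro-34 medium with added supplements and growth factors. All 6 lines carried the history of electroporation with a green fluorescent protein plasmid and of sorting for fluorescence. The wild-type (WT) lines came from cells given that plasmid without a guide RNA, and the Ephb2-KO lines from cells given it with a guide RNA to Ephb2, a receptor tyrosine kinase of the Eph family. The passage 20 group held WT 1, WT 2, Ephb2-KO 1 and Ephb2-KO 2, and the passage 18 group held WT 3 and Ephb2-KO 3. Replicate number 3 was the whole of passage 18, so passage and line number cannot be told apart. The labels name the medium and do not say whether other cells grew beside the spermatogonia.

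Spermatogonial stem cells are the germline stem cells of the testis. They renew under GDNF, a growth factor that acts through the receptor Ret and the co-receptor Gfra1, and under FGF, which both feed into transcription factors such as Etv5, Bcl6b and the Egr family. Testicular and embryonic fibroblasts can be carried along in such cultures or supplied as a feeder layer, and they make collagens and other matrix proteins that germ cells make little of. Values below are CPM, the share of a library's counts on a fixed scale, after TMM, a library scaling that assumes most genes do not differ. They are listed in the order WT 1, WT 2, Ephb2-KO 1 and Ephb2-KO 2 for passage 20, and WT 3 and Ephb2-KO 3 for passage 18. Folds are ratios of the group means. A gene was called when its adjusted p was under 0.05 in edgeR's quasi-likelihood test with genotype as covariate, and "rose", "fell", "higher" and "lower" are from passage 20 to passage 18. Total counts ranged from 21772404 to 34047758. The guide's target, Ephb2, was measured at 21.2, 27.1, 37.1 and 16.5 CPM at passage 20 and at 10.7 and 13.4 CPM at passage 18, and its level did not pass the test (edgeR adjusted p = 0.0577). Ephb2-KO 1 was above both WT libraries of its passage, Ephb2-KO 2 was below both, and Ephb2-KO 3 was above WT 3. A loss of the target's RNA in all Ephb2-KO libraries was therefore not visible in these counts. Whether the guide changed the gene's sequence or protein was not tested, and Ephb2-KO below names libraries by their label alone.

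The 2 passage 18 libraries lay together and apart from the others. The root mean square log2 difference over all tested genes was 0.492 between WT 3 and Ephb2-KO 3 and 0.994 to 1.14 between libraries of different passage. Libraries within passage 20 differed by 0.437 to 0.859. The first principal component held 56.5% of the variance and separated the passages, and the second held 24.6% and separated number 1 from number 2 in both genotypes. The test called 4020 of 15920 genes (25.3%), of which 2417 were higher (15.2%) and 1603 lower (10.1%). Of these, 792 higher and 44 lower genes had moved by more than 4-fold. Within passage 20 same-numbered libraries shared deviations. With the number as a random block in limma voom 1627 genes were higher (10.2%) and 366 lower (2.3%). With the number as a fixed block in edgeR, 3938 were higher (24.7%) and 3540 lower (22.2%). Called genes numbered 271 without WT 3 and 310 without Ephb2-KO 3, where a single passage 18 library was left and was assumed to vary like the other groups.

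The scaling set how the calls split. Higher genes made up 60.1% of calls with TMM and 49.2% with library totals alone, and the median log2 difference of all tested genes was -0.07 and -0.17. When libraries were instead scaled to a list of germ cell identity and piRNA genes, an alternative added after seeing the data, that median was 0.47, 4800 genes were higher (30.2%) and 80 were lower (0.503%). All 2417 higher calls and 80 of the 1603 lower calls were kept under the germ cell scaling, so "fell" below holds for TMM-scaled libraries, and the count under germ cell scaling is given for the lists in which more genes fell than rose. Calls that a list keeps with the random block are given as a count higher and a count lower. Over all tested genes 15.2% were higher and 10.1% lower, and 10.2% and 2.3% with the random block. The counts of each list are to be read against these shares.

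Among genes of at least 10 CPM on average whose ranges did not overlap, the largest rise was that of Sparcl1, a matrix-associated glycoprotein. It went from 1.79, 0.589, 2.14 and 0.902 CPM to 30.5 and 31.1 CPM, a 22.7-fold difference (log2 4.48 ± 0.47 SE, edgeR adjusted p = 0.000971). The small leucine-rich proteoglycans Lum, Aspn and Ogn rose 20.1-fold, 17.6-fold and 14.0-fold. Dkk2, a secreted Wnt regulator, stood at 1.06 to 2.01 CPM at passage 20 and at 34.8 and 30.3 CPM at passage 18. Ptn, a heparin-binding growth factor, reached 52.2 and 58.4 CPM from at most 5.46 CPM, and Agtr2, an angiotensin receptor, rose 17.1-fold. The lectin-like Clec2d, the steroid dehydrogenase Akr1c14, the ferritin receptor Scara5 and the aldehyde dehydrogenase Aldh1a7 rose by 13.8-fold to 16.4-fold, and so did the interferon-induced Ifi203 (15.1-fold) and Trim30a (13.9-fold). The smallest p-values belonged to 10 further genes that rose 5.53-fold to 8.78-fold with little spread within either passage. Cdh11, the cadherin of mesenchymal cells, went from 13.7, 12.9, 17.5 and 16.9 CPM to 125 and 139 CPM. Figf, the growth factor VEGF-D, went from between 12.7 and 14.4 CPM to 115 and 113 CPM, and Fhl2, Fam114a1, Rnase4, Matn2, Rnd3, Dcn, Olfml3 and Pcolce shared that pattern. In each of these genes both passage 18 libraries were above all 4 at passage 20, as they were for 26.7% of tested genes. For the genes of largest rise this was a condition of their choice, and the 10 further genes were chosen by p alone.

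The largest falls were smaller. Egr3, an early growth response factor induced by GDNF, fell from 35.5, 90.7, 48.9 and 75.9 CPM to 7.65 and 7.11 CPM, so that passage 20 was 8.50-fold higher (log2 -3.09 ± 0.43 SE, edgeR adjusted p = 0.00312). Atp12a, a proton-potassium ATPase, was 7.49-fold higher at passage 20. The zinc finger factors Sall3 and Sall1 were 5.55-fold and 3.77-fold higher at passage 20. Cdh1, the epithelial cadherin that marks undifferentiated spermatogonia, fell from 28.0, 21.3, 8.46 and 24.2 CPM to 4.85 and 3.73 CPM. The integrin subunit Itga3 and the laminin chain Lama5, which form a receptor and its ligand, were 3.95-fold and 3.63-fold higher at passage 20. The transcription factors Nfatc2, Egr4 and Bach2, the activity-regulated Arc, the orphan receptor Gprc5c, the ligand Bmp8b, the synapsin Syn1 and Pramel1 were 3.57-fold to 4.17-fold higher at passage 20. Of these 15, 9 did not pass with the random block. Over all 15 the limma voom adjusted p ran from 0.000533 to 0.210 there, and the adjusted p over all alternatives from 1.35e-78 to 0.360. Ranges that did not overlap were a condition for choosing these 15. Both passage 18 libraries were below all 4 at passage 20 in 26.1% of tested genes.

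**Figure D1:**
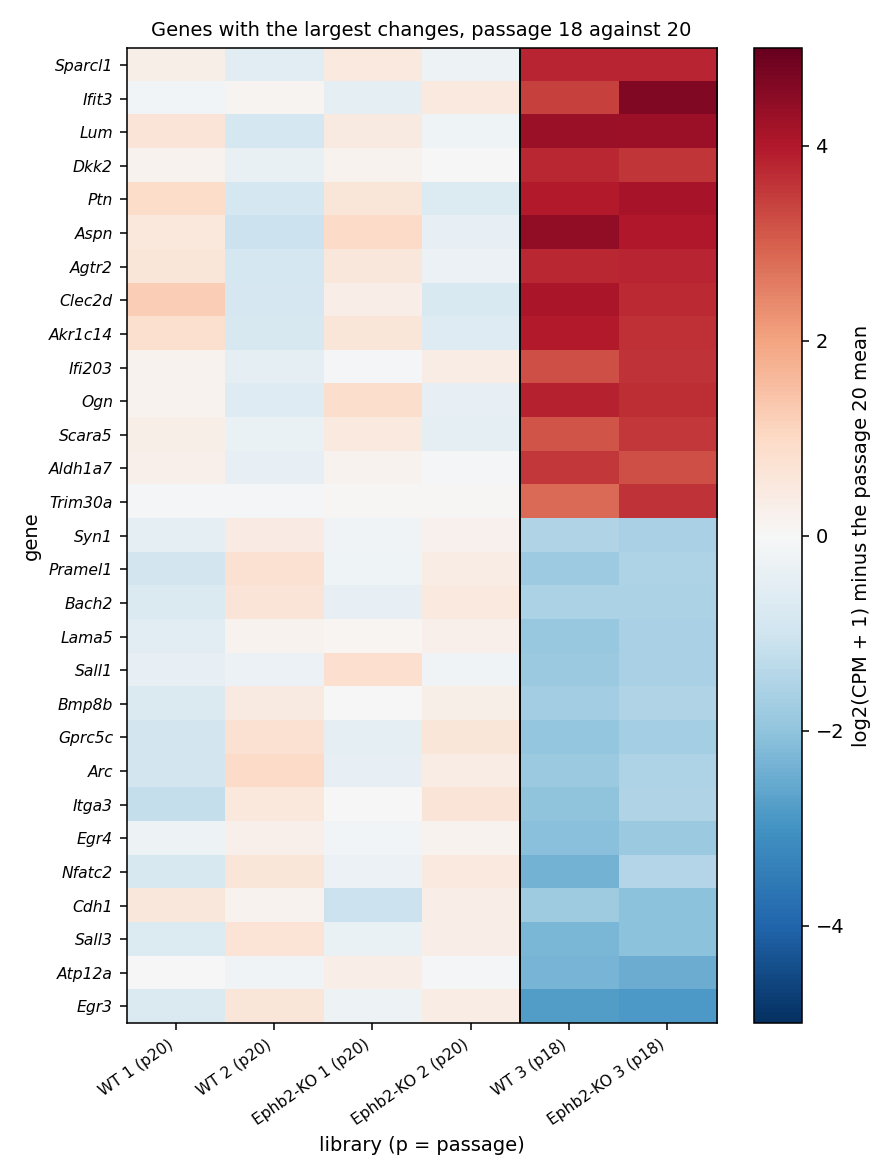
Heat map of 14 genes with the largest rises and 15 with the largest falls (rows) in the 6 libraries (columns); colour gives log2(CPM + 1) minus the mean of the 4 passage 20 libraries. The 2 columns at the right are WT 3 and Ephb2-KO 3 at passage 18. Rows were chosen for ranges that did not overlap, so these columns lie above every passage 20 column in the 14 upper rows. They lie below every one in the 15 lower rows. Passage 20 columns differ among themselves, as for Itga3 (14.4 to 54.1 CPM).

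Fibroblast and stromal markers were the gene group with the highest median. Of 23 tested members 19 rose and 1 fell, with a median log2 difference of 2.23 against -0.07 over all tested genes, and the random block called 19 higher. The list took 0.512, 0.614, 0.736 and 0.764% of counts at passage 20 and 2.49 and 2.73% at passage 18, a 3.98-fold ratio. The exact two-sided permutation test gave p = 0.1333 for that ratio, the smallest value that 2 against 4 libraries allow. In bulk RNA, more cells of a type and more RNA per cell cannot be told apart. Every list below was compared between these same libraries, and the part of this share in their values was not tested. Dcn, the proteoglycan decorin, went from 267, 214, 296 and 290 CPM to 2335 and 2345 CPM. Pdgfra, the PDGF receptor of mesenchymal cells, went from 29.0, 33.8, 44.7 and 42.2 CPM to 165 and 212 CPM. Neither gene overlapped between the passages. Dpt, a dermal matrix protein, rose 10.4-fold, Ly6a, a surface antigen, 5.75-fold, and Col1a1, the main fibrillar collagen chain, 2.73-fold. Fbln1, a matrix glycoprotein, fell from 77.2 to 154 CPM to 47.2 and 52.3 CPM. The mesenchymal filament gene Vim was at 258, 624, 311 and 809 CPM and at 1021 and 1331 CPM, and fibronectin, Fn1, was 2.23-fold higher at passage 18. Neither passed the test (edgeR adjusted p = 0.0776 and 0.0724), and both were higher in number 2 than in number 1 in each genotype.

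The extracellular matrix list moved with the stromal list, with which it shares genes. Of 57 tested members 38 rose and 3 fell (median log2 difference 1.42), and its share of counts went from between 0.983 and 1.68% to 3.72 and 4.33%. Col6a1, a chain of the beaded-filament collagen, went from 155, 146, 238 and 183 CPM to 915 and 1279 CPM. Efemp1, an elastic fibre protein, rose 8.43-fold and Mmp2, a gelatinase, 4.21-fold. Lama5 and Lama1, both basement membrane laminin chains, were among those that fell. Lama1 went from 10.9, 15.8, 14.3 and 10.7 CPM to 4.07 and 3.58 CPM. Fbln1 and Lama1 did not pass with the random block (adjusted p from 0.0517 to 0.0539, and over all alternatives from 5.99e-19 to 0.265). The random block kept 36 higher and 1 lower call on the matrix list. Of 29 integrin and focal adhesion genes 5 were higher (17.2%) and 2 lower (6.90%), near the 15.2% and 10.1% of all tested genes, and the random block called 3 higher and 0 lower. Cadherin and junction genes fell in 10 of 26 and rose in 3 (3 lower and 3 higher under germ cell scaling), and the random block called 1 lower and 1 higher.

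Markers of other somatic cell types moved in part, with few calls per list. Over all tested genes 15.2% were higher and 10.1% lower. Of 12 smooth muscle and peritubular myoid genes 3 rose, namely the actin-binding genes Tpm2 (5.09-fold) and Cald1 (4.06-fold) and smooth muscle actin, Acta2, which went from 4.41, 13.7, 5.11 and 15.1 CPM to 30.5 and 35.7 CPM. The other 9 did not pass, and the list median was 0.04. In 3 of these 9 both passage 18 libraries were below all 4 at passage 20, as they were for 26.1% of all tested genes. The list's summed level was 169 to 310 CPM at passage 20 and 679 and 716 CPM at passage 18, of which Cald1 alone made 465 and 473 CPM. The random block also called 3 of this list higher. Of 11 Sertoli genes 1 rose, Ctsl, a lysosomal protease that many cells make (2.33-fold), and 2 fell, Wt1 and Dhh (0 lower and 2 higher under germ cell scaling). Dhh was near the floor, at 0.294 to 0.676 CPM at passage 20 and at 0.0411 and 0.0491 CPM at passage 18. The passage 18 values were below a count of 3. The defining hormone gene Amh and the receptor Fshr were too low to test. Leydig cell genes had 0 called of 3 tested at a summed 16.6 to 31.5 CPM over all 6 libraries, and the leukocyte list had 1 of 8, Lyz2 (0.314 to 1.31 CPM, then 3.08 and 3.53 CPM), with Ptprc too low to test. Of 10 endothelial genes Eng and Emcn rose and Tek fell. In the list of simple epithelial keratins and their partners 4 of 12 genes fell, none of them a keratin (1 lower under germ cell scaling and 1 with the random block). The list's summed level went from between 233 and 337 CPM to 128 and 122 CPM. Spint1, an epithelial protease inhibitor, fell from 122, 139, 130 and 134 CPM to 50.8 and 63.2 CPM, and the tight junction gene Cldn7 went from 1.69 to 3.47 CPM to 0.247 and 0.0981 CPM. Wt1, Dhh, Lyz2, Emcn, Tek and Cldn7 did not pass with the random block (adjusted p from 0.0503 to 0.191, and over all alternatives from 2.29e-13 to 0.409).

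**Figure D2:**
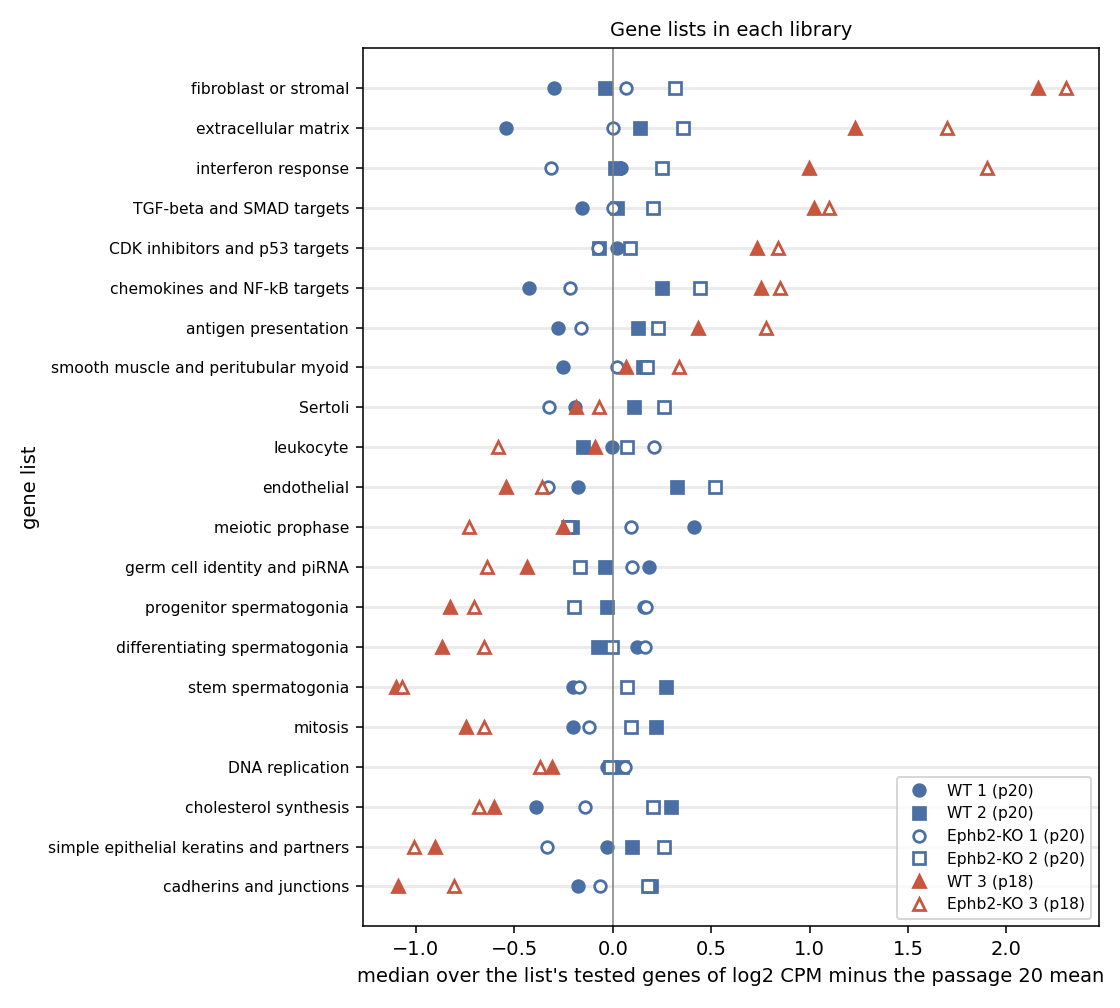
Median over each gene list (rows) of log2 CPM minus the passage 20 mean (horizontal axis) in each library; blue is passage 20, red passage 18, filled WT, open Ephb2-KO, and the marker shape gives the replicate number. Fibroblast or stromal genes reach 2.16 and 2.30 in the red points and stem spermatogonia genes -1.10 and -1.07, while the blue points of those lists lie between -0.298 and 0.315.

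Genes of stem spermatogonia fell in part and none rose. Of 22 tested members 12 fell (54.5%, against 10.1% of all tested genes) and 0 rose, with a median log2 difference of -1.18. The random block called 6 lower, and under germ cell scaling 4 fell, Egr2, Egr3, Egr4 and Pou3f1, with a list median of -0.65. Of these 4, Pou3f1 did not pass with the random block (limma voom adjusted p = 0.067). It was at 4.06 to 7.87 CPM at passage 20 and at 1.11 and 1.62 CPM at passage 18. The list's share of counts was 0.217 to 0.284% at passage 20 and 0.116 and 0.113% at passage 18, a ratio of 2.14 between the passages. Ret, the GDNF receptor kinase, fell from 135, 210, 164 and 182 CPM to 72.6 and 77.8 CPM (log2 -1.20 ± 0.21 SE, edgeR adjusted p = 0.0071). Its co-receptor Gfra1 was at 146, 246, 149 and 233 CPM and at 99.7 and 124 CPM, and did not pass the test (edgeR adjusted p = 0.0704). Both genes were lower in each passage 18 library than in any at passage 20. Id4, Nanos2 and Bcl6b, regulators that keep the stem state, were 1.74-fold, 1.64-fold and 2.14-fold higher at passage 20. Etv5, an FGF and GDNF target needed for renewal, followed the line number: it stood at 24.6 and 23.4 CPM in the number 1 lines, 252 and 219 CPM in the number 2 lines and 31.1 and 31.8 CPM at passage 18 (edgeR adjusted p = 0.248).

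Part of the progenitor, differentiating and pan-germ cell genes also fell. Of 17 progenitor genes 8 fell (47.1%, against 10.1% of all tested genes) and 0 rose, with a median log2 difference of -0.79. The random block called 2 lower, and germ cell scaling 1 lower and 1 higher. The 1 higher was Neurog3, a factor of progenitor spermatogonia, at 10.7, 1.34, 0.395 and 1.31 CPM and at 19.9 and 13.3 CPM. Its log2 difference of 2.93 was the largest on the list and did not pass the test (edgeR adjusted p = 0.0518). Sox3 and Taf4b, transcriptional regulators of undifferentiated spermatogonia, were 2.34-fold and 2.56-fold higher at passage 20. Zbtb16, the zinc finger factor of undifferentiated spermatogonia, went from 225, 212, 226 and 153 CPM to 109 and 118 CPM. Of 14 genes of differentiating spermatogonia 6 fell and 0 rose (median -0.77, 3 lower with the random block, 2 under germ cell scaling). Kit, the receptor that marks differentiating spermatogonia, fell from 50.4, 94.1, 82.7 and 68.9 CPM to 22.6 and 21.6 CPM, 3.35-fold below passage 20, and also fell under germ cell scaling. Esx1, Rhox13 and Uchl1 were 2.43-fold, 1.89-fold and 1.67-fold higher at passage 20, and Stra8, the retinoic acid target at meiotic entry, overlapped between passages at 4.12 to 28.1 CPM and 12.5 and 16.0 CPM. Of 24 germ cell identity and piRNA genes 9 fell and 1 rose, Mybl1, a transcription factor of meiotic cells, and the random block called 6 lower. These are the genes that the germ cell scaling holds level. Tex11, Rnf17 and Tdrkh were 1.66-fold to 1.75-fold higher at passage 20, and Dazl, a germ cell RNA-binding protein, went from 1109, 1384, 1352 and 1289 CPM to 823 and 695 CPM. Ddx4, a germ cell helicase, overlapped, at 95.9 to 291 CPM against 118 and 83.6 CPM. Of 22 meiotic prophase genes 1 fell, Tex14 (0 under germ cell scaling), and of 16 pluripotency genes Klf4 rose and 3 fell, Nanog among them (0 lower and 2 higher under germ cell scaling, and 0 called with the random block). Zbtb16, Cdh1, Id4, Nanos2, Bcl6b, Rhox13, Dazl, Mybl1, Tex14, Nanog and Klf4 did not pass with the random block (adjusted p from 0.0556 to 0.166, and over all alternatives from 6.94e-28 to 0.569).

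**Figure D3:**
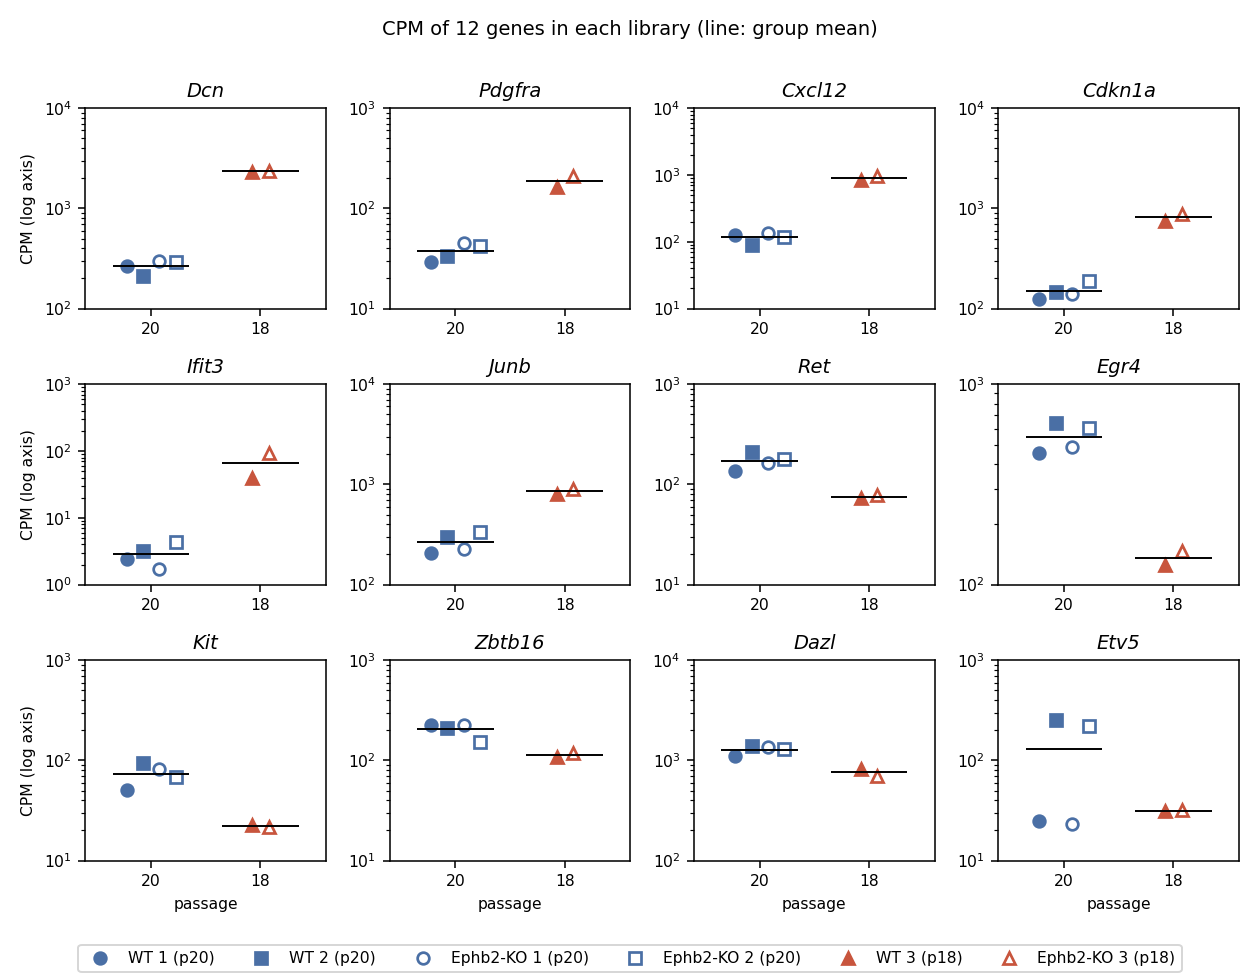
CPM on a log axis of 12 genes in each library by passage, with a line at each group mean; colours and markers are as for the gene lists. Dcn, Pdgfra, Cxcl12, Cdkn1a, Ifit3 and Junb are higher in both passage 18 libraries, Ret, Egr4, Kit, Zbtb16 and Dazl are lower in both, and Etv5 separates number 2 (252 and 219 CPM) from the other 4 libraries.

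In the list of MAPK and immediate early targets 5 of 28 rose (17.9%) and 4 fell (14.3%), near the 15.2% and 10.1% of all tested genes. The random block called 3 higher and 4 lower, against 10.2% and 2.3% of all tested genes. Under germ cell scaling 9 were higher and 3 lower, against 30.2% and 0.503%. Under both of these settings the falls were above the share over all tested genes. Those that fell were Egr1, Egr2, Egr3 and Fosb, and no other Fos family gene of the list passed the test. Egr2 and Egr3 are also counted with the stem genes, and Egr4, counted there alone, moved with them. Egr4 fell from 452, 644, 488 and 603 CPM to 125 and 148 CPM, Egr2 from 166, 192, 123 and 138 CPM to 65.0 and 57.4 CPM, and Egr1 from between 1054 and 1547 CPM to 606 and 693 CPM. Fosb, a partner of the Jun proteins, was 2.90-fold higher at passage 20. Junb rose from 208, 300, 225 and 332 CPM to 794 and 909 CPM, and the cyclin Ccnd1 rose 2.44-fold. Promoter windows of Egr2 hold the serum response element core, the CArG box. The match printed is 1 of 2, which lie in the windows of different annotated starts. It is shown because Egr2 was a fallen gene whose windows held the box. The window of Fosb held none, and Egr1 and Egr3 had no window. The capitals mark the match in RefSeq sequence, GRCm38.p6, + strand, chr10:67537777-67537826.
Egr2: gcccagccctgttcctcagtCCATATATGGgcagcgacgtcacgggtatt
The CArG box, searched on both strands in the 250 bases before and 50 after each annotated start, was found in 2 of 18 list members with a window (11.1%) and in 1.54% of the tested genes with one.

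Part of the mitosis and DNA replication genes fell in TMM-scaled libraries, and a number of p53 targets rose. Of 35 mitosis genes 19 fell (54.3%, against 10.1% of all tested genes) and 0 rose (median log2 difference -0.72). The random block called 2 lower, Kif23 and Incenp, and germ cell scaling 0. Kif23, a kinesin of cytokinesis, fell from 50.2, 70.9, 51.6 and 62.3 CPM to 25.0 and 27.9 CPM. Of 43 DNA replication genes 14 fell and 1 rose (3 lower with the random block, and 0 lower and 7 higher under germ cell scaling), and the helicase subunits Mcm3 and Mcm6 were 2.12-fold and 2.01-fold higher at passage 20. Mki67, the proliferation marker, was at 31.5, 58.3, 28.9 and 43.0 CPM and at 12.2 and 23.5 CPM (edgeR adjusted p = 0.0614). Among CDK inhibitors and p53 targets 15 of 28 rose (53.6%) and 2 fell (7.14%), against 15.2% and 10.1% of all tested genes. The random block called 13 higher. Cdkn1a, which encodes the CDK inhibitor p21, rose from 125, 147, 138 and 189 CPM to 753 and 886 CPM, 5.46-fold (log2 2.45 ± 0.17 SE, edgeR adjusted p = 0.000261). The p53 targets Phlda3, Fas and Eda2r rose 4.82-fold, 11.6-fold and 5.86-fold. Cdkn2a, which encodes p16 and p19ARF, went the other way, from 75.2, 72.8, 70.3 and 80.5 CPM to 53.1 and 50.2 CPM, and Plk3 also fell. Cdkn2a and Plk3 did not pass with the random block (adjusted p from 0.111 to 0.162, and over all alternatives from 1.85e-28 to 0.984).

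Interferon response genes rose in the 2 passage 18 libraries and were higher in the library labelled Ephb2-KO 3 than in WT 3. Type I interferon signalling acts on promoters that hold the interferon-stimulated response element (ISRE). Of 44 tested members 24 rose (54.5%, against 15.2% of all tested genes) and 0 fell. The median log2 difference was 1.42, and 17 were higher with the random block. Ifit3, an antiviral RNA-binding protein gene, went from 2.43, 3.22, 1.69 and 4.33 CPM to 39.0 and 93.2 CPM, and Ifit1 from at most 6.81 CPM to 53.8 and 90.4 CPM. Lgals3bp, a secreted scavenger receptor protein, went from 22.9, 21.6, 27.1 and 31.6 CPM to 131 and 252 CPM, and Samd9l, an antiviral factor, rose 10.4-fold. All 44 genes were higher in Ephb2-KO 3 than in WT 3, 1 library against 1, as were 56.9% of all tested genes and 53 of 57 extracellular matrix genes. The difference between the passages was larger in the Ephb2-KO lines for 43 of the 44 (97.7%) and for 55.6% of all tested genes, with list medians of 2.05 and 0.83 in Ephb2-KO and WT lines. No gene passed the test of that difference itself, the interaction of passage and genotype (edgeR, 0 called, 27 at an unadjusted p under 0.05; DESeq2, 0 called; 7 called by edgeR without a low-count filter).

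Promoter stretches of 2 members that rose and 2 that did not pass the test are printed because both kinds hold the ISRE. The sequences are from RefSeq, GRCm38.p6, written 5′ to 3′ on the gene's strand, and the capitals mark the letters GAAANNGAAA or their reverse complement, with overlapping matches joined. The stretches lie at chr19:34583353-34583436 (Ifit3, + strand), chr11:48871421-48871470 (Irgm1, - strand), chr5:120777705-120777754 (Oas3, - strand) and chr3:142620584-142620633 (Gbp2, + strand).
Ifit3: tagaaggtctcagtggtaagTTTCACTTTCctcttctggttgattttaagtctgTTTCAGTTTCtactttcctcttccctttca
Irgm1: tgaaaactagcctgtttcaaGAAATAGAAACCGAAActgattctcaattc
Oas3: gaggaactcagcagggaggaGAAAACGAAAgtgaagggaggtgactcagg
Gbp2: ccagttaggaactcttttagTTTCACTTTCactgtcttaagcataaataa
Of 33 members with a RefSeq window, 16 held the letters (48.5%), against 3.59% of 11291 tested genes with a window. Of those 16 genes 5 rose, and of the 17 without the letters 11 rose. Irgm1, an immunity-related GTPase, went from 10.3, 18.7, 7.39 and 21.7 CPM to 32.6 and 63.0 CPM. Oas3, a sensor of double-stranded RNA, was at 4.20 to 9.96 CPM and at 3.70 and 6.23 CPM, and Gbp2, a guanylate-binding protein, at 32.7, 108, 19.7 and 106 CPM and at 34.8 and 58.2 CPM. Gbp2 separated number 2 from number 1 at passage 20, and its passage 18 values fell within that range.

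**Figure D4:**
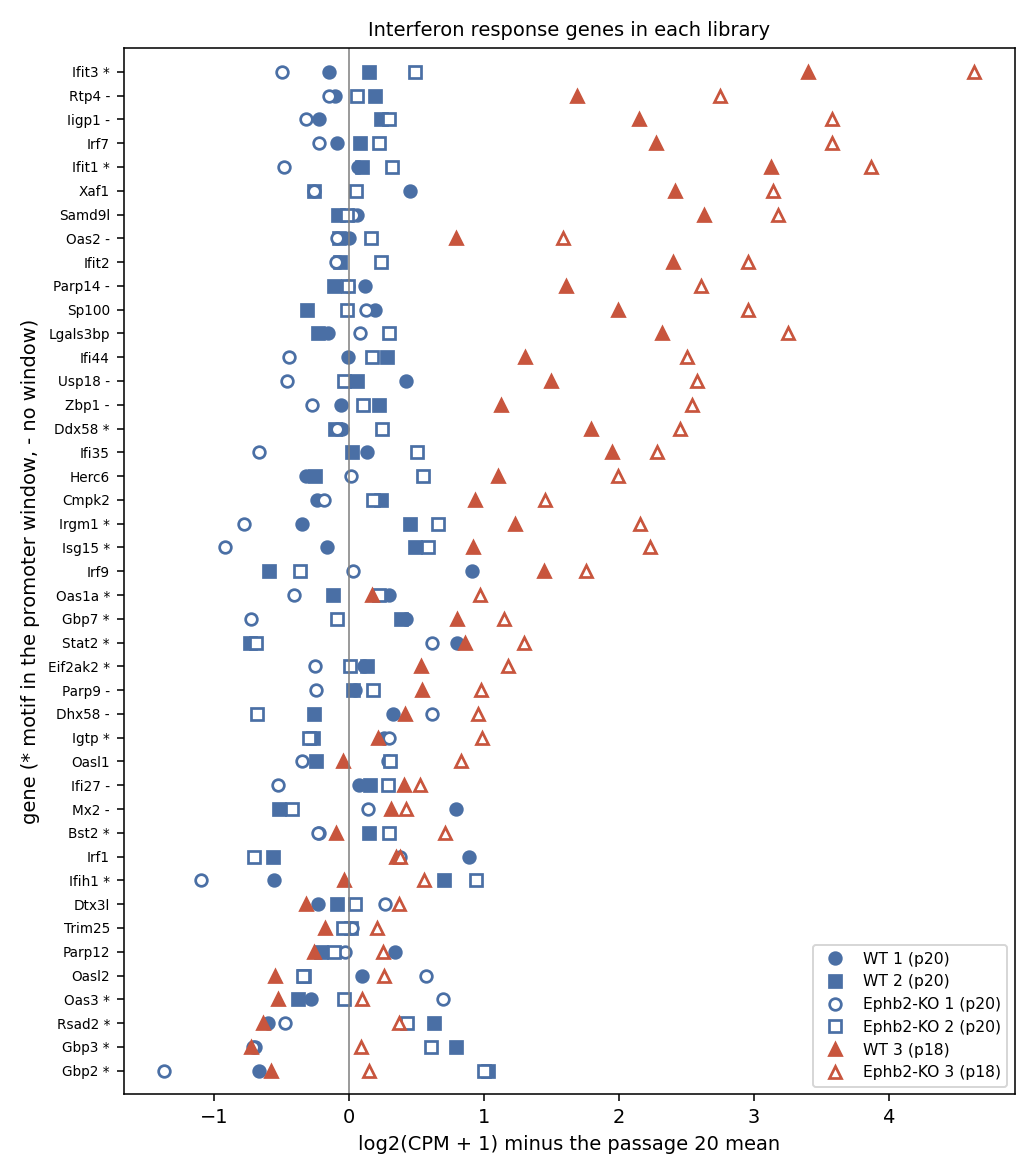
Log2(CPM + 1) minus the passage 20 mean (horizontal axis) of 43 interferon response genes (rows) in each library, with colours and markers as for the gene lists; an asterisk marks a motif match in the promoter window and a dash a gene with no window. Open red triangles (Ephb2-KO 3) lie to the right of filled ones (WT 3) in all 43 rows.

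Other immune genes followed. Of 18 antigen presentation genes 8 rose (44.4%) and 2 fell (11.1%), against 15.2% and 10.1% of all tested genes. The random block called 7 higher and 1 lower. H2-T23, a non-classical class I gene, went from 11.1, 7.62, 8.72 and 9.52 CPM to 67.0 and 91.7 CPM, while the classical H2-D1 and H2-K1 rose 2.51-fold and 1.93-fold and the peptide transporter Tap2 2.94-fold. The chaperone gene Tapbp and the peptidase gene Erap1 fell, and were 1.89-fold and 1.70-fold higher at passage 20. Irgm1 and Erap1 did not pass with the random block (adjusted p from 0.0567 to 0.0832, and over all alternatives from 2.55e-11 to 0.509). Of 24 chemokine and NF-kB genes 9 rose (37.5%) and 0 fell (8 and 0 with the random block). Cxcl12, a chemokine that draws stem cells to their niche, went from 126, 91.1, 137 and 119 CPM to 832 and 956 CPM. The adhesion molecules Vcam1 and Icam1 rose 5.58-fold and 2.56-fold, and Il1rn, the interleukin-1 receptor antagonist, went from at most 0.0803 CPM to 2.96 and 3.09 CPM. The leukocyte list summed to 29.8 to 41.3 CPM at passage 20 and to 31.5 and 26.5 CPM at passage 18.

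Genes of niche signalling moved in both directions. The ligands Cxcl12, Igf1 and Kitl and the receptor Egfr rose, and the receptors Ret and Kit fell. Of 27 genes of GDNF, FGF and niche signalling 5 rose (18.5%) and 6 fell (22.2%), against 15.2% and 10.1% of all tested genes. The random block called 5 higher and 2 lower, and germ cell scaling 8 higher and 1 lower. Igf1, a growth factor of stromal cells, rose 6.91-fold, and Kitl, the ligand of Kit, from 14.8, 34.9, 17.7 and 41.1 CPM to 89.0 and 93.9 CPM. The EGF receptor Egfr rose 3.75-fold. Of 22 TGF-beta and SMAD genes 10 rose and 2 fell (9 and 0 with the random block); the receptor Tgfbr2 and the induced genes Tgfbi and Id1 rose 4.27-fold, 4.42-fold and 3.34-fold. Of 27 Wnt genes 4 rose (14.8%) and 2 fell (7.41%), near the 15.2% and 10.1% of all tested genes. With the random block 4 were higher and 1 lower. Fzd1, a receptor, rose 4.20-fold. Dkk3, a secreted protein of the Dkk family, was at 142 and 179 CPM from at most 61.7 CPM. Tcf7, a transcription factor of the pathway, was 2.36-fold higher at passage 20. Among 16 retinoid genes 4 rose (25.0%) and 1 fell (6.25%), with 3 and 0 under the random block. Aldh1a1, a retinaldehyde dehydrogenase, went from between 15.6 and 31.0 CPM to 230.3 and 220.3 CPM, and its paralogue Aldh1a2 from 15.2 to 26.9 CPM to 8.14 and 10.2 CPM. Among 19 Eph receptors and ephrins 2 rose (10.5%) and 1 fell (5.26%), below the shares over all tested genes. Epha7 and Epha3 rose 5.46-fold and 4.35-fold and Epha1 fell. Aldh1a2 and Epha1 did not pass with the random block (the highest adjusted p was 0.128, and over all alternatives the range with Kitl was 1.61e-14 to 0.410).

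Metabolic and stress lists were mixed. Of 28 genes of the integrated stress response and amino acid supply 9 rose and 2 fell (8 and 1 with the random block). The lipoprotein receptor Vldlr and the stress-response regulators Atf5 and Nupr1 rose 4.55-fold, 3.57-fold and 6.83-fold, and the leucine transporter Slc7a5 fell from 409, 811, 720 and 790 CPM to 259 and 322 CPM. Of 24 cholesterol synthesis genes 8 fell and 1 rose, Ebp, and with the random block 3 and 1. The regulator Srebf2 was 2.33-fold higher at passage 20. Under germ cell scaling 0 of these genes fell and 5 rose. Of 35 glycolysis and hypoxia targets 6 rose (17.1%) and 4 fell (11.4%), near the shares over all tested genes, and the random block called 4 higher and 2 lower. The peptide hormone Adm rose 8.68-fold and the enolase Eno2 3.83-fold, and the glucose transporter Slc2a3 was 3.18-fold higher at passage 20. Of 28 antioxidant genes 8 rose and 2 fell (7 and 2 with the random block). The glutathione transferases Gstm2 and Gsta3 rose 5.74-fold and 3.34-fold, and the extracellular peroxidase Gpx3 went from 14.4, 10.7, 20.0 and 13.0 CPM to 2.59 and 6.08 CPM. Of 37 nuclear oxidative phosphorylation genes 7 rose (18.9%, against 15.2% of all tested genes) and 1 fell, and Cox7b was 1.98-fold higher. With the random block 2 of them were higher and 0 lower. Of 20 fatty acid genes 2 rose and 3 fell (2 and 0 with the random block, and 4 and 0 under germ cell scaling), and of 25 genes of the unfolded protein and heat shock responses 2 rose and 1 fell (1 and 0 with the random block). Fabp4, a fatty acid carrier of adipocytes, rose 7.38-fold, and Herpud1, a membrane protein induced by endoplasmic reticulum stress, 4.18-fold. Of 7 mitochondrially encoded genes mt-Nd4 fell (0 under germ cell scaling), with values that overlapped between passages at 458 to 1196 CPM and 358 and 464 CPM.

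Chromatin and positional genes changed in part. Of 39 imprinted genes 10 rose (25.6%) and 5 fell (12.8%), against 15.2% and 10.1% of all tested genes. The imprinted falls were near that share. Of 33 Hox genes 10 rose (30.3%) and 1 fell (3.03%). The random block called 10 imprinted genes higher and 1 lower, and 7 Hox genes higher and 0 lower. It called 10.2% and 2.3% of all tested genes. The imprinted genes Dlk1, a membrane protein of mesenchymal progenitors, and Rian, a noncoding RNA of the same domain, went from 43.5 to 59.7 CPM to 237 and 364 CPM and from at most 4.43 CPM to 46.4 and 28.4 CPM. Cd81, a tetraspanin, rose 3.84-fold, and Zdbf2 was 2.62-fold higher at passage 20. Hoxd8 and Hoxc6 rose 4.15-fold and 5.41-fold, and Hoxc10 went from 2.70, 3.77, 6.04 and 3.92 CPM to 0.987 and 0.932 CPM. Of 16 DNA methylation enzymes and cofactors 6 fell and 0 rose (1 lower with the random block, and 0 lower and 1 higher under germ cell scaling); the maintenance methyltransferase Dnmt1 and the de novo methyltransferase Dnmt3b were 2.02-fold and 2.43-fold higher at passage 20. mt-Nd4, Hoxc10 and Dnmt3b did not pass with the random block (adjusted p from 0.0642 to 0.107, and over all alternatives from 3.49e-20 to 0.333). Of 8 Y-linked genes 3 fell (1 with the random block and 0 under germ cell scaling), and Uba1y went from 225, 213, 225 and 173 CPM to 118 and 119 CPM, while Ddx3y did not pass the test at 15.5 and 11.9 CPM against 17.0 to 36.3 CPM. Xist was at 0.196 to 1.36 CPM in all 6 libraries, and of 11 replication-dependent histone genes 1 rose. The median log2 difference per autosome, over genes of at least 5 CPM, ranged from -0.16 to 0.06, and was -0.65 for 6 genes of the Y chromosome.

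The passage difference was also taken within each genotype label. Across all tested genes, which are not independent replicates, the difference of WT 3 from WT 1 and 2 correlated with that of Ephb2-KO 3 from Ephb2-KO 1 and 2 at r = 0.835; number 2 minus number 1 gave r = 0.545 between the genotypes. Stromal list medians were 2.29 in WT and 2.22 in Ephb2-KO lines, progenitor medians -0.48 and -0.66, and mitosis medians -0.76 and -0.62. The interferon medians given above were the farthest apart of these lists. The fixed block takes the difference between numbers 1 and 2 out of the spread against which passage is tested. With the fixed block, 9 of the named genes that had not passed did so: Fn1, Vim, Gfra1, Etv5, Stra8, Ddx4, Mki67, Ephb2 and Ddx3y (adjusted p from 4.69e-06 to 0.0409, and over all alternatives from 1.82e-64 to 0.991). With 1 passage 18 library per genotype, 470 genes were higher and 5 lower in the WT lines alone, and 205 higher and 1 lower in the Ephb2-KO lines alone.

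**Figure D5:**
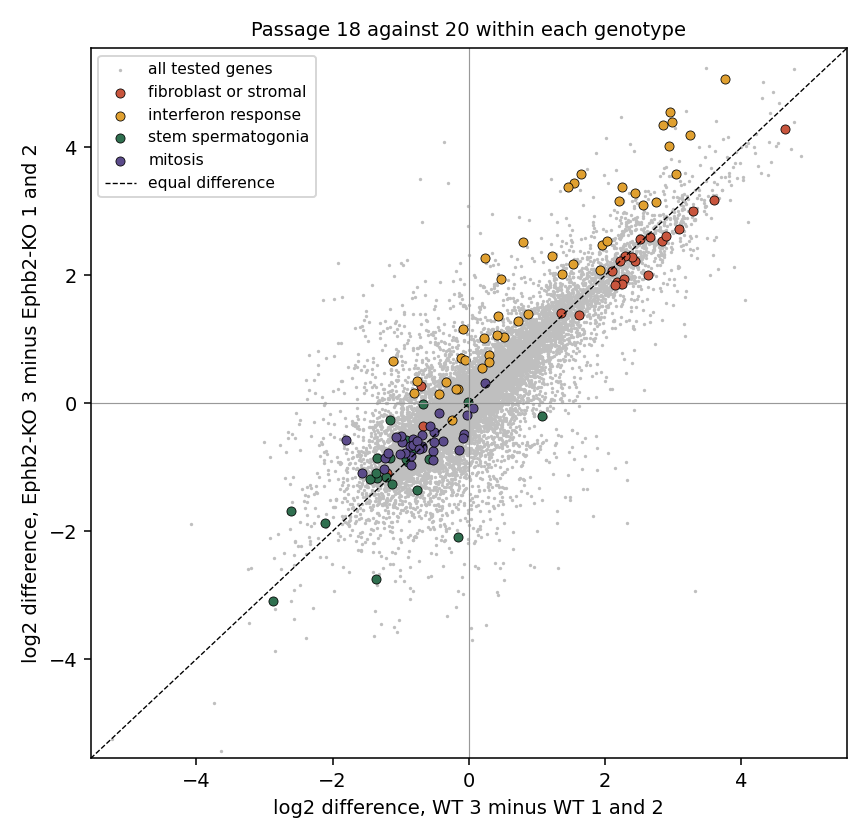
Log2 difference between passage 18 and passage 20 in the WT lines (horizontal axis) and in the Ephb2-KO lines (vertical axis) for all 15920 tested genes in grey, with 4 gene lists coloured and a dashed line of equal difference. Stromal, stem spermatogonia and mitosis genes lie along the line, and 43 of 44 interferon response genes lie above it.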

How the data were processed

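Each deposited file gives unscaled counts of reads for every gene. Per the file headers, counting was done by the authors with featureCounts 1.4.6-p4 over GENCODE vM3 exons grouped by gene name, with strand setting 2, from 1 merged alignment per library. STAR, FastQC and build GRCm38.p3 are named per the submitters' processing notes; the aligner's settings are not given. Reads of near-identical genes may be undercounted. All 41053 rows named a gene.

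Counts were fitted in R 4.3.3 with edgeR 4.0.16 (filterByExpr by passage, TMM, robust quasi-likelihood test, genotype as covariate, Benjamini-Hochberg over all 15920 tested genes). No library was a duplicate. Deviations of each library from its genotype mean correlated at 0.605, 0.721 and 0.835 between same-numbered libraries and at -0.599 to 0.0506 between others. The 0.835 of number 3 is the passage difference itself, and the deviations of numbers 1 and 2 also hold that difference. These values therefore cannot separate pairing from passage. Number 2 minus number 1, which leaves passage out, correlated at 0.545 between the genotypes. The numbers come from the sample titles and were taken as pairing the libraries, so a random block was fitted in limma 3.58.1 and a fixed one in edgeR. The random block treats number 3 as 1 unit at passage 18, and the fixed block compares number 3 with the mean of numbers 1 and 2. P-values of the fixed block leave out the spread between numbers 1 and 2. The labels call the lines subclones and give no parent culture, so p-values measure the spread between these 6 libraries. DESeq2 1.42.0, other scalings, filters and samples left out were alternatives. The scripts were tested on simulated data. A count of 3 was 0.0803 to 0.147 CPM, which covers counting error only.

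The comparison, its 42 gene lists and the tests were chosen with earlier results of these data known. Named genes were up to 15 higher and 15 lower with the largest change, at least 10 CPM on average and ranges that did not overlap, 10 further genes by smallest p, up to 4 passing members per list (2 by smallest p where none passed), and a fixed set. Chosen after their values were seen were Fbln1, Lama1, Pou3f1, Neurog3, Mybl1, Egr1, Plk3, Irgm1, Oas3, Gbp2, Tapbp, Erap1, Kitl, Slc7a5, Gpx3, Rian, Zdbf2, Hoxc10, Amh, Fshr and Ptprc. 8 list entries were not matched to a gene name in the files, and some genes that the rule names are not reported here.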

Additional observations from a re-analysis of the deposited data

Results flagged for a closer look

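Within the 4 passage 20 libraries 1 library stood apart from the other 3 in 5 of 204 values checked, by a gap to its neighbour that was too large a part of the group's range for Dixon's test. Chance alone flags about 1 in 20. Sall1 was 77.8 CPM in Ephb2-KO 1 and 32.0 to 37.8 CPM in the others (gap 0.874 of the range). Mcm6 was 176 CPM in WT 1 against 249 to 260 CPM (0.874). Ifit2 was 4.51 CPM in Ephb2-KO 2 against 3.36 to 3.46 CPM (0.915). Erap1 was 90.8 CPM in WT 1 against 133 to 137 CPM (0.913). The retinoid list took 0.0543% of counts in Ephb2-KO 1 and 0.0429 to 0.0447% in the others (0.842).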

How the results depend on the processing

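The calls depended on how spread between numbered lines entered the test. Higher and lower genes numbered 3938 and 3540 with the fixed replicate block, and 366 were lower with the random replicate block. They numbered 4493 and 4063 without the number 1 libraries, 3670 and 3199 without the number 2 libraries, 470 and 5 in WT lines only and 205 and 1 in Ephb2-KO lines only. Without a low-count filter 2430 genes were lower and 7 passed the test of the difference between genotypes, and under germ cell scaling 4800 were higher and 80 lower. Leaving out each library gave 269 to 2428 higher and 2 to 1759 lower genes; without WT 2 there were 1061 lower. DESeq2, RLE size factors, library totals, the other filters and the fit without genotype kept both counts within 1.5 times. The stromal ratio was 4.23 from TMM-scaled CPM.

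Signs turned for genes and lists near 0 or split by number, and for these the cause was not tested. Etv5 went to 0.41, Gbp2 to 0.84 and Stra8 to -0.35 without number 2, Gbp2 to 0.15 without Ephb2-KO 2, Stra8 to -0.034 in Ephb2-KO lines only and -0.039 without WT 3, and Oas3 to 0.26 under germ cell scaling. That scaling also turned the medians of meiotic prophase (0.052), Sertoli (0.37), leukocyte (0.12), integrin (0.47), DNA replication (0.21), Wnt (0.0080), Eph (0.29), retinoid (0.42), glycolysis (0.40) and fatty acid (0.40) genes and of replication-dependent histones (0.43). Without number 2 the medians of Sertoli (0.25), MAPK target (0.35) and retinoid (0.058) genes turned. Leukocyte genes had 0.0088 in WT lines only, 0.041 without number 1 and 0.0092 without Ephb2-KO 3, Sertoli genes 0.12 without Ephb2-KO 2, retinoid genes 0.091 with a filter of 5 CPM, and replication-dependent histones 1.21 with that filter and 0.86 without number 1, with -0.595 to 1.21 over all alternatives. Neurog3 left aside, 2634 values over the named genes and all alternatives kept sign and side of the threshold, 528 lost the call, 57 gained it and 7 turned. Leaving out 1 library gave from -0.039 to 1.12 for Stra8, -1.01 to 0.15 for Gbp2, -0.29 to 0.12 for the Sertoli median and -0.68 to 0.0092 for the leukocyte median. The random replicate block ended 37 of the calls named and the fixed block 0, and neither changed another call among them apart from the 9 that the fixed block added. With 2 libraries at passage 18, 1 per genotype, their number limits the precision of every value.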
